A study of Drosophila melanogaster with 4 samples.

Results

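The regions described here are the γH2AvD regions on 2L, the left arm of Drosophila chromosome 2, that lie more than 1 Mb from the centromeric end of the arm. They were chosen by position alone: a region belonged if its midpoint lay below 22011544 on dm3, the genome build of the study, and no read count entered the choice. γH2AvD was mapped by chromatin immunoprecipitation with sequencing (ChIP-seq) in the established Drosophila cell line S2, and 3 region lists were deposited. One list set ChIP against input in cells given RNA interference for the linker histone dH1 (dH1 RNAi), another did so in wild-type (WT) cells, and the last, the direct list, set the dH1 RNAi ChIP against the WT ChIP. The stretch of 22.01 Mb held 179 of the 1563 regions of the dH1 RNAi list, 36 of the 297 regions of the WT list and 2 of the 66 regions of the direct list.

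The study had 4 libraries, 1 each of ChIP and input from dH1 RNAi cells and of ChIP and input from WT cells. Per the labels' protocols, dH1 RNAi cells received 100 µg of double-stranded RNA at days 1, 4 and 7 over 8 days in all, and 10 ng of DNA went through 15 cycles of PCR for each library. The antibody was a rabbit polyclonal, and the level of dH1 left in the cells is not stated. The same protocol text stands on all 4 samples, and it is the genotype label that gives the depletion to the dH1 RNAi pair alone. No RNA against another target is recorded, so effects of the treatment as such and of dH1 depletion cannot be told apart. Every group is 1 library, which leaves no replicate error and no test. The sources used here give no library totals, so depth is unknown and counts are unscaled. Intervals are exact at 95%. Those of read ratios cover counting error alone, and those of shares treat each region as independent, although regions of a list share clusters. The names of the lists carry the tag markdup, which points to a marking of duplicate reads. Whether marked copies made by PCR were left out of the counts is not stated.

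H2Av is the histone variant that in Drosophila does the work of both H2A.X and H2A.Z. Its phosphorylated form, γH2AvD, is laid down by damage-signalling kinases around broken DNA and is used as a marker of DNA damage. Linker histones such as dH1 bind the nucleosome where DNA enters and leaves it and help to compact chromatin. The lists ask where this damage mark stands out over input when dH1 is targeted and when it is not. The arm outside its centromeric end is largely gene-rich euchromatin, with transposon insertions and some repeated gene clusters within it. None of the regions carries a gene name in the lists and dm3 gene models were not used here, so each is given by its position, counted from 1.

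γH2AvD regions on 2L were 4.97 times as many with dH1 RNAi as in WT cells. That was 8.13 regions per Mb with dH1 RNAi and 1.64 per Mb in WT cells. They covered 192 kb with dH1 RNAi and 35.15 kb in WT cells. The arm held 11.5% of the dH1 RNAi list (9.92 to 13.1) and 12.1% of the WT list (8.64 to 16.4). The median width was 900 bp (interquartile range 650 to 1200) with dH1 RNAi and 1050 bp (738 to 1150) in WT cells. The widest region was 4600 bp with dH1 RNAi and 1450 bp in WT cells. Each list was called on its own at unknown depth. The lowest ChIP count called on the arm was 75 with dH1 RNAi and 114 in WT cells. With at most 200 control reads required in both lists, dH1 RNAi regions were 3.77 times as many. The number of regions is therefore not read as an amount of the mark.

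Along the arm, regions were uneven in both lists and the dense stretches were partly the same. Of the 22 full windows of 1 Mb, all 22 held a dH1 RNAi region and 13 held a WT region, and no window held more WT than dH1 RNAi regions. The densest dH1 RNAi window was the last one before the proximal limit, with 29 dH1 RNAi regions against 8 WT regions. The densest WT window was the eleventh, with 18 dH1 RNAi regions against 11 WT regions. Several dH1 RNAi windows had few or no WT regions. The ninth window held 13 dH1 RNAi regions and 0 WT regions, the thirteenth 14 dH1 RNAi regions and 1 WT region, and the fourteenth 16 dH1 RNAi regions and 2 WT regions. The telomeric 100 kb held no region in any of the 3 lists.

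**Figure D1:**
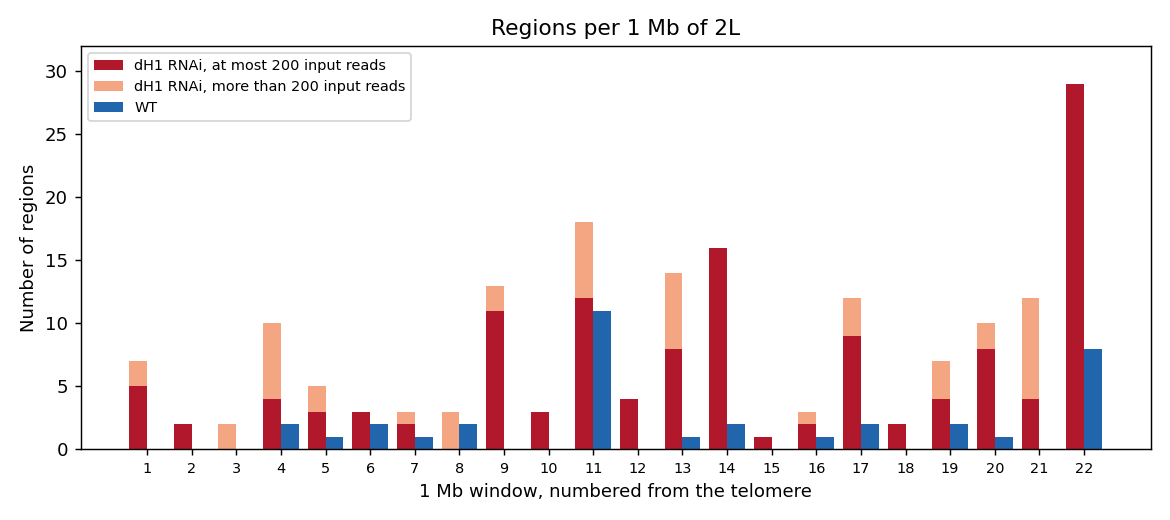
Number of called regions in each 1 Mb window of 2L, with windows numbered from the telomere; dH1 RNAi bars are stacked by input count and stand left of the WT bar of the same window. Window 22 holds 29 dH1 RNAi and 8 WT regions, and window 11 holds 18 dH1 RNAi and 11 WT regions.

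The ratio of ChIP to input reads in a region, computed from the deposited counts, describes how far a region stands out within its own list. In the dH1 RNAi list the median ratio on 2L was 1.01 (interquartile range 0.683 to 1.19; range 0.502 to 3.70), with medians of 114 reads in the ChIP and 104 in the input. In the WT list it was 2.31 (1.86 to 3.14; range 1.38 to 5.26), with medians of 242.5 reads in the ChIP and 94 in the input. The ratio was below 1 at 86 of the 179 dH1 RNAi regions (48.0%) and at 0 of the 36 WT regions (upper interval bound 9.74%). Over all sequence, 59.6% of dH1 RNAi regions had fewer ChIP than input reads, a larger share than on 2L. A region with a ratio below 1 could be called although the file headers set a minimum window fold of 3, and the caller's scaling of the libraries is not stated. For that reason the level of a ratio in one list against that in the other is given as counted, and no direction in the mark is read from it.

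**Figure D2:**
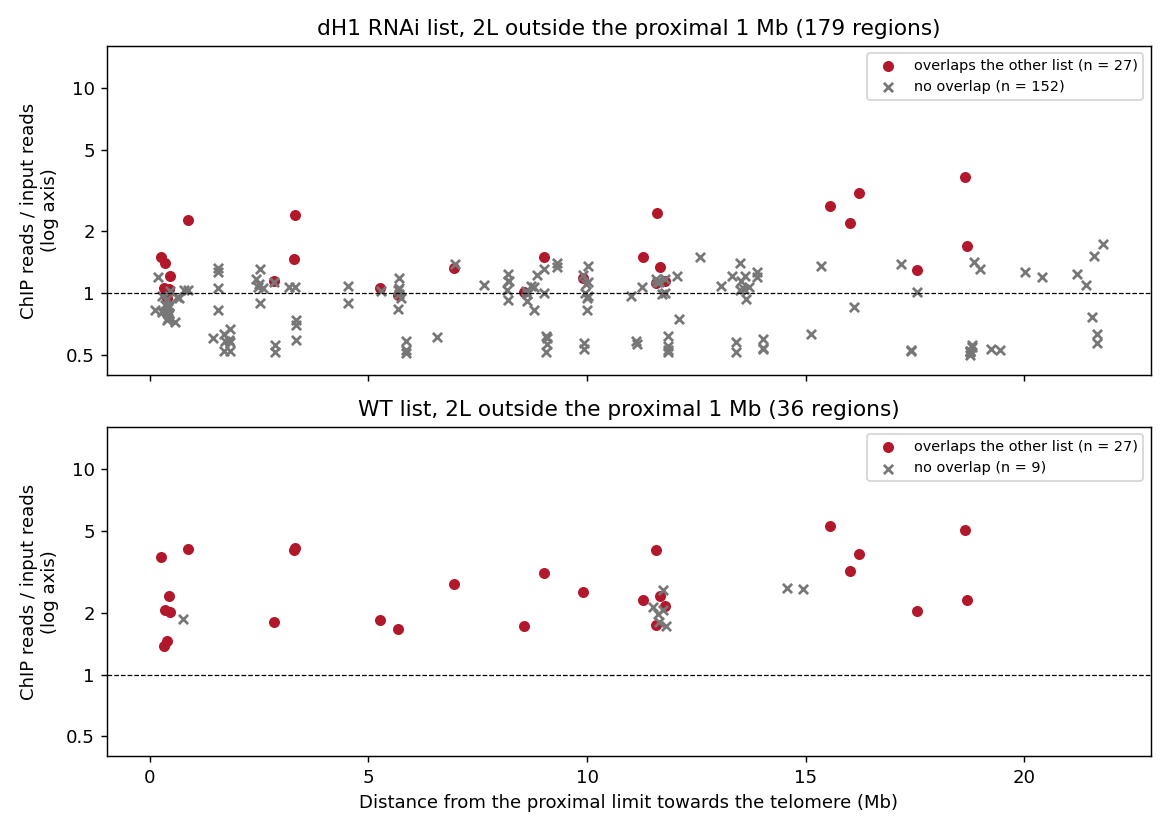
Ratio of ChIP to input reads (log axis) of each 2L region against its distance from the proximal limit, in the dH1 RNAi list (upper panel, 179 regions) and in the WT list (lower panel, 36 regions); filled points overlap a region of the other list. The dH1 RNAi points spread from 0.502 to 3.70 around a ratio of 1, and the WT points lie between 1.38 and 5.26.

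Most WT regions of the arm were called again after dH1 RNAi, while most regions of the dH1 RNAi list stood alone. Of the dH1 RNAi regions, 27 of 179 overlapped a WT region by at least 1 bp (15.1%, 10.2 to 21.2), against 13.7% of the whole dH1 RNAi list. Of the WT regions, 27 of 36 overlapped a dH1 RNAi region (75%, 57.8 to 87.9), against 72.4% of the whole WT list. Both shares on 2L thus lay near those of all sequence. The 27 pairs were one to one. Paired in this way, at most 36 of the 179 dH1 RNAi regions could overlap a WT region. The low share of the dH1 RNAi list is thus largely set by the lengths of the lists and is not read as new sites.

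The shared regions were called at nearly the same places. Their summits, the points the caller set as the peak, were a median of 50 bp apart (interquartile range 0 to 100), 21 of 27 lay within 100 bp, and the farthest pair was 600 bp apart. The window of the caller moved in steps of 50 bp. The dH1 RNAi region was wider in 12 pairs and narrower in 12, with a median width of 1150 bp with dH1 RNAi and 1100 bp in WT cells.

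At each of the 27 shared regions the dH1 RNAi ChIP had fewer reads than the WT ChIP. Over all sequence the same held at 100% of shared regions. ChIP reads ran from 84 to 219 (median 124) in dH1 RNAi cells and from 166 to 532 (median 272) in WT cells. Input reads ran from 33 to 156 (median 81) in dH1 RNAi cells and from 58 to 234 (median 100) in WT cells. The quotient of ChIP reads, dH1 RNAi over WT, had its median at 0.434 (interquartile range 0.414 to 0.494; range 0.363 to 0.591), a narrow spread. The same quotient of input reads was 0.754 (0.691 to 0.854) and was below 1 at 24 of 27 regions. Dividing the ChIP quotient by the input quotient gave a median of 0.591 (0.517 to 0.653), and the result was below 1 at 27 of 27 regions, against 99.1% of shared regions over all sequence. Each of these quotients holds an unknown factor for depth that is the same at all regions, so whether it lies above or below 1 is not read as a change in the mark.

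**Figure D3:**
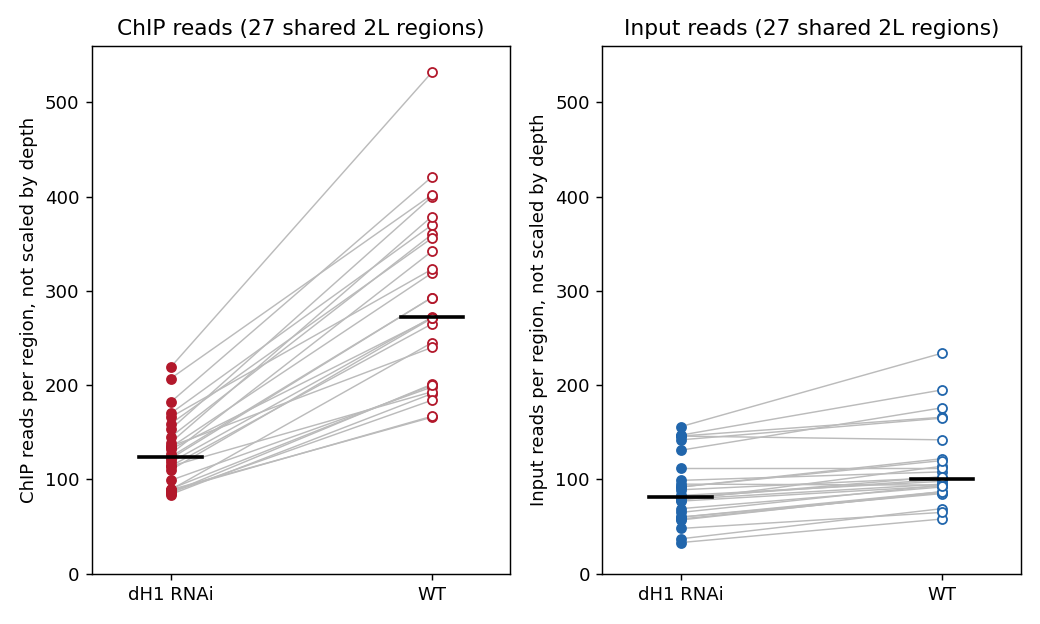
ChIP reads (left) and input reads (right) of the 27 shared 2L regions in dH1 RNAi and WT cells, not scaled by depth; lines join the regions of a pair and black bars are medians. The ChIP medians are 124 in dH1 RNAi and 272 in WT cells, and the input medians are 81 in dH1 RNAi and 100 in WT cells.

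The order of the shared regions was much alike in the lists. Over the 27 pairs, which share their genomic positions, the ratio of ChIP to input had a Spearman correlation of 0.855 between the lists, given as a description. The corresponding values were 0.904 for ChIP reads and 0.931 for input reads. The input reads were thus as alike in rank as the ChIP reads.

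The regions with the highest ratios in both lists were shared ones. The region with the highest ratio of the dH1 RNAi list lay at 3376301 to 3377450, with 122 ChIP reads and 33 input reads after dH1 RNAi (ratio 3.70, 2.50 to 5.61), and 293 ChIP and 58 input reads in WT cells (ratio 5.05, 3.80 to 6.82). The highest ratio of the WT list lay at 6455401 to 6456700. It had 127 ChIP reads and 48 input reads after dH1 RNAi (2.65, 1.88 to 3.77), and 342 ChIP and 65 input reads in WT cells (5.26, 4.03 to 6.97). Both regions had the same summit to within 100 bp in the lists and low input counts. At 5799801 to 5800850 there were 114 ChIP and 37 input reads after dH1 RNAi (3.08, 2.11 to 4.59), and 265 ChIP and 69 input reads in WT cells (3.84, 2.94 to 5.08). The quotient of ChIP over input there, dH1 RNAi over WT, was 0.802, the highest of the 27 pairs. The region at 21142451 to 21143650 had more reads, 182 ChIP and 80 input after dH1 RNAi (2.28, 1.74 to 3.00), and 421 and 103 in WT cells (4.09, 3.29 to 5.12). By ratio, 8 of the 10 highest dH1 RNAi regions of the arm were shared, as were 13 of the highest 20.

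A pair of neighbouring regions had close ratios in WT cells and less close ones after dH1 RNAi. The first, at 18702801 to 18704000, had 145 and 60 reads in ChIP and input after dH1 RNAi, for a ratio of 2.42 (1.78 to 3.32), against 360 and 87 reads in WT cells, a ratio of 4.14 (3.27 to 5.29). The next region, at 18708151 to 18709400, had 139 and 95 reads after dH1 RNAi, for a ratio of 1.46 (1.12 to 1.92), against 379 and 94 reads in WT cells, a ratio of 4.03 (3.21 to 5.11). The difference between the neighbours was not tested. Their ChIP quotients, dH1 RNAi over WT, were 0.403 (0.330 to 0.490) and 0.367 (0.2998 to 0.447), and their input quotients 0.690 and 1.01. The second had the lowest ChIP over input quotient of the 27 pairs, 0.363.

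The proximal end of the stretch held 3 of the 5 WT regions with most ChIP reads. The last 0.5 Mb before the limit held 23 dH1 RNAi regions and 6 WT regions, and each of these 6 was shared. The WT region with most ChIP reads, at 21756901 to 21758250, had 219 ChIP reads and 146 input reads after dH1 RNAi (ratio 1.5, 1.21 to 1.86), and 532 ChIP and 142 input reads in WT cells (3.75, 3.11 to 4.54). The next WT regions of this end by ChIP reads were less far above their input. At 21657851 to 21659350 there were 207 ChIP and 147 input reads after dH1 RNAi, against 402 and 195 in WT cells. At 21572751 to 21573900 there were 153 ChIP and 146 input reads after dH1 RNAi, against 400 and 166 in WT cells. Input counts were high over this end, with medians of 145 reads in the 23 dH1 RNAi regions and 171 reads in the 6 WT regions, against 104 and 94 over the arm. The lowest WT ratios of the arm lay here too. At 21684351 to 21685150 the dH1 RNAi ratio was 1.06 (0.850 to 1.33), against 1.38 (1.163 to 1.64) in WT cells with 234 input reads, the only WT region of the arm above 200. Outside this end the lowest WT ratio was at 16325351 to 16326000, with 90 ChIP reads and 92 input reads after dH1 RNAi (0.978) and 200 and 120 in WT cells (1.67).

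The limit of the stretch fell in a gap between regions. The last dH1 RNAi region inside, at 21899701 to 21900350, had 120 ChIP and 145 input reads, and the first outside, at 22111051 to 22112100, had 104 and 127. The last WT region inside was that at 21756901 with a ratio of 3.75, and the first outside, at 22120701 to 22122300, had 358 ChIP and 88 input reads and a ratio of 4.07. The last 1 Mb of the arm, beyond the limit, held 30 further dH1 RNAi regions and 14 further WT regions.

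The WT regions of the eleventh window stood close together. Of the 36 WT regions, 10 lay within 300.3 kb, from 10207101 to 10507400, which is 1.36% of the stretch. This was the shortest span with 10 WT regions and was chosen after the values were seen. The same span held 10 dH1 RNAi regions, of which 4 overlapped a WT region. ChIP reads there ran from 85 to 170 in the dH1 RNAi list, at 69 to 92 input reads, and from 129 to 370 in the WT list, at 50 to 122 input reads. The strongest of them, at 10422201 to 10423600, had 170 ChIP reads and 69 input reads after dH1 RNAi (2.46, 1.85 to 3.31), and 370 and 92 reads in WT cells (4.02, 3.19 to 5.11). The widest WT region of the arm, at 10231401 to 10232850, had 89 ChIP reads and 78 input reads after dH1 RNAi, where the region was 600 bp wide, and 245 and 114 reads in WT cells, where it was 1450 bp wide. Its ChIP quotient of 0.363 (0.282 to 0.465) was the lowest of the 27. A region of 1400 bp at 13003301 to 13004700, outside that span, had 134 and 89 reads after dH1 RNAi and 319 and 102 reads in WT cells.

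The 9 WT regions without a dH1 RNAi counterpart had few ChIP reads, and 6 of them lay in that span. They had 114 to 188 WT ChIP reads (median 161) and a median ratio of 2.07 (range 1.71 to 2.65), and none was wider than 950 bp. All 24 WT regions with more than 188 ChIP reads were shared. Most reads among the unshared ones were found at 10506451 to 10507400, with 188 ChIP and 88 input reads in WT cells, and at 10387501 to 10388350, with 171 and 87. Others were at 10207101 to 10207700 with 168 and 98 reads, at 10356251 to 10356900 with 164 and 91, and at 21260401 to 21260950 with 161 and 86. At the 2 unshared WT regions between 7 and 8 Mb, the nearest dH1 RNAi region was 187 and 548 kb away. For the other 7 it was 12.2 to 66.2 kb away. A site that was not called may still carry the mark, since the lowest ChIP count called on the arm was 75 in the dH1 RNAi list, and reads at sites that were not called are not listed.

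The dH1 RNAi regions of 2L fell into 2 kinds by input count. At most 177 input reads were found at 132 regions and at least 226 at 47 (26.3%, 19.97 to 33.3), with none between, so that the limit of 200 reads lay in a gap. More than 200 input reads, here called high input, were found at 37.9% of the whole dH1 RNAi list. In WT cells it was 1 of 36 regions on 2L and 2.36% of the whole list. The limit was the same for both inputs although depth is unknown. The WT region on 2L had a ratio of 1.38, so it is not taken as the same kind. The 47 high-input regions had a median of 223 ChIP and 397 input reads, and a median ratio of 0.56 (interquartile range 0.527 to 0.596; range 0.502 to 0.738). Their ChIP reads followed their input reads closely (Spearman 0.957, n = 47, a description of sites that share their libraries), and 35 of them had a ratio from 0.5 to 0.6. None of the 47 overlapped a WT region (upper interval bound 7.55%), while 27 of the 132 others did. Over all sequence some high-input regions were shared, as input reads of shared dH1 RNAi regions ran up to 603 (upper quartile 99). Their share there is not given here, so no difference between 2L and all sequence is read from this. All 7 high-input WT regions of the whole list overlapped a dH1 RNAi region. At the 1 on 2L that dH1 RNAi region had 156 input reads. At a ratio of at least 4/3 of the lowest of the list, 1.49% of the remaining dH1 RNAi regions on 2L were high-input. That cut takes out the lowest ratios, where this kind lay, so the fall follows from the cut. The 132 others had a median ratio of 1.09 (0.968 to 1.27), with medians of 101 ChIP and 94 input reads.

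**Figure D4:**
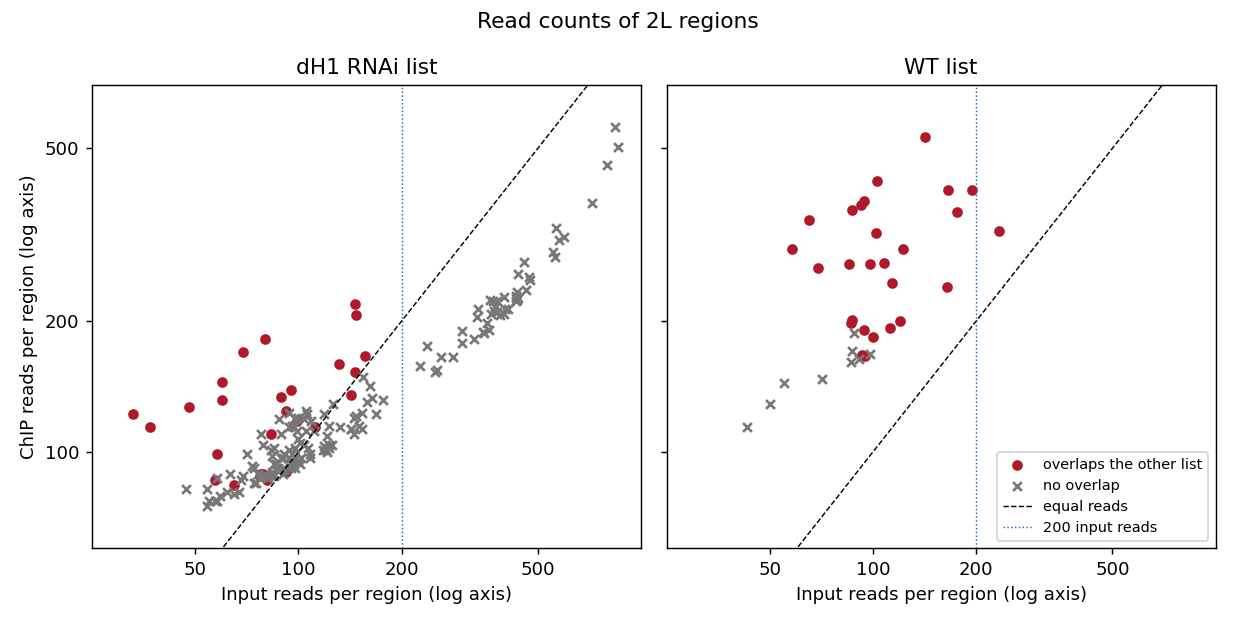
ChIP reads against input reads (both log axes) for each 2L region of the dH1 RNAi list (left) and of the WT list (right), with the line of equal reads and the limit of 200 input reads. In the dH1 RNAi list 47 unshared regions lie to the right of the limit and below the line of equal reads, and the shared regions lie left of it, most of them above the other regions of like input.

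The regions with most ChIP reads after dH1 RNAi were all of the high-input kind. The 24 dH1 RNAi regions with more ChIP reads than any shared one each had more than 200 input reads. The 3 with most reads lay in an approximate window around the 38C piRNA cluster, a locus of transposon remnants that gives rise to small RNAs that silence transposons. Its dH1 RNAi regions formed a block from 20179401 to 20197850 that held 4 regions over 18450 bp, of which 14650 bp were called. The region at 20179401 to 20184000 had 561 reads in the ChIP and 840 in the input (0.668, 0.599 to 0.744). At 20193251 to 20197850 there were 505 and 855 reads (0.591, 0.528 to 0.660), at 20186401 to 20190850 there were 459 and 794 (0.578, 0.514 to 0.649), and at 20184351 to 20185350 there were 249 and 476. The first of these are also the widest regions of the arm, at 4600, 4600 and 4450 bp. No WT region lay in the window.

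Other high-input blocks were short and dense. A block from 3251651 to 3259050 held 4 regions with 281 to 374 ChIP reads and 552 to 720 input reads, and ratios from 0.502 to 0.524. It included the lowest ratio of the arm, 0.502 (0.433 to 0.580) at 3251651 to 3253500, and a region with 374 ChIP and 720 input reads at 3257501 to 3259050. Blocks of 4 regions also lay from 10157001 to 10163600, with 363 to 434 input reads, and from 12934451 to 12941200, with 332 to 410. At 8596201 to 8600100 a region of 3900 bp had 327 ChIP and 564 input reads. The next lowest ratios were 0.510 at 16159251 to 16159900, with 236 ChIP and 463 input reads, and 0.515 at 19151501 to 19152050, with 226 and 439. The sources used here do not state how reads with several matches in the genome were treated, so regions in repeated sequence may share reads.

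How many regions counted as grouped depended on the gap allowed between neighbours. Of the 179 dH1 RNAi regions, 113 (63.1%, 55.6 to 70.2) lay less than 10 kb from another region of the list, against 53.1% of the whole dH1 RNAi list. In the WT list it was 4 of 36 (11.1%, 3.11 to 26.1), against 23.2% of the whole WT list. At a gap of 1 kb the clustered share of 2L regions was 24.02% with dH1 RNAi and 5.56% in WT cells, and at 50 kb it was 81.6% with dH1 RNAi and 44.4% in WT cells. Joined at 10 kb, the dH1 RNAi regions made 107 clusters or single regions and the WT regions 34, which is 3.15 times as many with dH1 RNAi. Of the 41 dH1 RNAi clusters with 2 or more regions, 13 held only high-input regions, 26 held none and 2 held both kinds. Clusters of high-input regions alone had a median span of 5550 bp (range 2700 to 18450), and clusters with none of them 6725 bp. A longer list leaves shorter gaps, so the clustered shares of lists of unequal length are not read as a difference in pattern. Of the high-input regions 41 of 47 were clustered, and of the others 72 of 132. The same split over all sequence is not given here, so it is not read as a trait of 2L.

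The largest cluster of the arm was made of low-input regions at its proximal end. It ran from 21605401 to 21633200 and held 7 dH1 RNAi regions with 110 to 135 ChIP reads and 123 to 153 input reads, and ratios from 0.739 to 0.951. A WT region lay within it, at 21624551 to 21625250, with 135 ChIP reads and 142 input reads after dH1 RNAi (0.951, 0.746 to 1.21), and 240 and 165 reads in WT cells (1.45, 1.19 to 1.78). A cluster of 5, from 21570851 to 21589200, held the shared region at 21572751 and 4 unshared regions with 103 to 123 ChIP reads. The longest of the 8 clusters of 4, from 13810451 to 13833350, held 4 regions with 94 to 119 ChIP reads, 89 to 104 input reads and no WT region. The WT clusters were the pair at 18702701 to 18709300 and a pair at 10277401 to 10279250, which had 129 and 147 ChIP reads and no dH1 RNAi counterpart. The window of the histone gene cluster, a tandem array of the replication-dependent histone genes, held 2 dH1 RNAi regions with 122 and 129 ChIP reads and ratios of 0.726 and 1.02, and no WT region.

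Part of the unshared dH1 RNAi regions neighboured WT regions. Of the 105 unshared regions with at most 200 input reads, 20 (19.0%) lay within 10 kb of a WT region, a zone that makes up 3.21% of the stretch, and 40 (38.1%) lay within 50 kb, a zone of 11.7%. None of the 47 high-input regions lay within 10 kb and 11 (23.4%) lay within 50 kb. Regions of a list share clusters, so these shares describe neighbourhoods, not independent sites. The zone shares stand for even placement along the stretch, while both lists were uneven and partly dense in the same windows.

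The unshared regions also lay along the lower edge of their list. For each region the edge was taken as the lowest ChIP count in the whole list among regions with at least as many input reads, a measure chosen after the values were seen. The 152 unshared dH1 RNAi regions had a median of 1.06 times the edge (interquartile range 1.01 to 1.13), and 0 of them exceeded 1.5 times. The 27 shared ones had a median of 1.38 times (1.15 to 1.69), and 11 of them exceeded 1.5 times. Shared and unshared together, that was 11 of the 179 dH1 RNAi regions on 2L, against 7.17% of the whole dH1 RNAi list. In the WT list the 9 unshared regions had a median of 1.04 times the edge and 0 exceeded 1.5 times. The 27 shared WT regions had a median of 1.53 times (1.13 to 2.04), and 14 exceeded 1.5 times. Shared and unshared together, that was 14 of the 36 WT regions on 2L, against 46.1% of the whole WT list. By its construction the edge cannot fall as input rises, and no region can lie below it. The 47 high-input regions had a median of 1.04 times the edge. Which unshared regions would be called in further libraries was not tested.

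**Figure D5:**
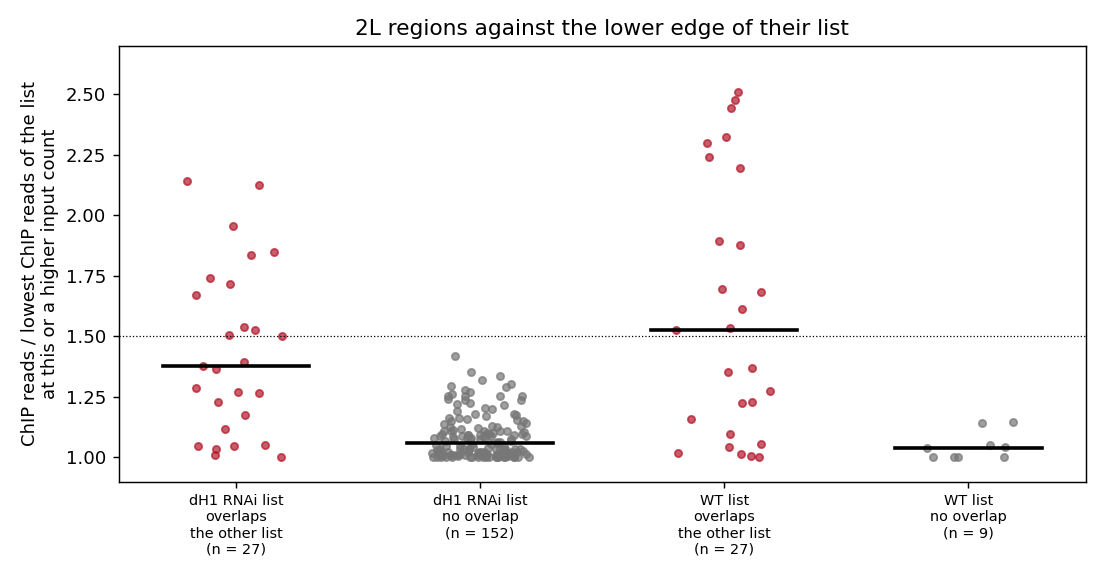
ChIP reads of each 2L region divided by the lowest ChIP count of its list at this or a higher input count, for dH1 RNAi regions (left) and WT regions (right) with and without overlap; black bars are medians and the dotted line marks 1.5. Unshared regions stay below 1.5 in both lists, with medians of 1.06 with dH1 RNAi and 1.04 in WT cells.

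The unshared low-input regions with the highest ratios after dH1 RNAi lay near the telomere and in the tenth window. At 205951 to 207100 there were 82 ChIP and 47 input reads (1.74, 1.20 to 2.55), and at 421751 to 422450 there were 82 and 54 (1.52, 1.06 to 2.18). At 9430051 to 9431050 there were 87 and 58 (1.5, 1.06 to 2.13). These 3 were picked by ratio after the values were seen. All 105 unshared low-input regions had 75 to 149 ChIP reads and 47 to 177 input reads, with a median ratio of 1.06 (0.939 to 1.20).

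The direct list had 2 regions on the arm, both in the 38C block. Each overlapped a dH1 RNAi region, as 97.0% of the direct list did, and the dH1 RNAi ChIP library is shared by these lists. At 20180901 to 20181900 the dH1 RNAi ChIP had 554 reads and the WT ChIP 720, a ratio of 0.769 (0.688 to 0.861). At 20194251 to 20195600 the dH1 RNAi ChIP had 499 reads and the WT ChIP 703, a ratio of 0.710 (0.632 to 0.797). As counted, both had fewer reads after dH1 RNAi, while the 27 shared regions had ChIP quotients of up to 0.591. The direct list was called on this same ratio and with another read extension, so the values are not set against each other further. The WT ChIP counts at these sites, 720 and 703, were higher than at any called WT region of the arm, where the highest was 532, although no WT region was called there.

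These 2 sites also show what a region's count covers. The dH1 RNAi ChIP library was counted at 554 reads over 1000 bp in the direct list and at 561 reads over 4600 bp in the dH1 RNAi list. At the other site it was 499 reads over 1350 bp and 505 reads over 4600 bp. Over the 64 direct regions of all sequence with a dH1 RNAi counterpart, the direct count was a median of 1.02 times that of the dH1 RNAi list (interquartile range 1.00 to 1.04), while the dH1 RNAi region was a median of 1.39 times as wide. The count of the same library thus barely changed with the width of the region, and counts were not divided by width.

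Beside 3L and 3R, also outside their proximal 1 Mb, 2L had somewhat fewer dH1 RNAi regions per Mb and somewhat more WT regions. The dH1 RNAi list had 8.13 regions per Mb on 2L, 8.66 on 3L and 8.77 on 3R, and the WT list 1.64, 1.27 and 1.41. Regions of the dH1 RNAi list were 4.97 times as many as those of the WT list on 2L, 6.80 times on 3L and 6.21 times on 3R. The share of dH1 RNAi regions with more than 200 input reads was 26.3% on 2L (19.97 to 33.3), 20.6% on 3L (15.3 to 26.8) and 14.4% on 3R (10.2 to 19.5), and their median ratio was 0.56, 0.565 and 0.582. The share of WT regions with a dH1 RNAi counterpart was 75% on 2L (57.8 to 87.9), 60% on 3L (40.6 to 77.3) and 76.3% on 3R (59.8 to 88.6). The median ChIP quotient of dH1 RNAi over WT at shared regions was 0.434 on 2L, 0.470 on 3L and 0.436 on 3R. Differences between the arms were not tested. The intervals of the shares treat each region as independent, while 41 of the 47 high-input regions on 2L were clustered. Whether these intervals overlap is therefore not read as a difference between arms.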

How the data were processed

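The study measured γH2AvD by ChIP-seq in S2 cells. The submitters' processing notes name the build dm3, FastQC 0.10.1 and Bowtie 0.12.5. The authors called regions by PeakRanger 1.16 in its CCAT mode, per the file headers (window 500 bp, step 50 bp, at least 4 reads, window fold 3, false discovery rate cut-off 0.1), with reads extended to 200 bp, or 50 bp in the direct list. Each list used 1 ChIP and 1 control library. The deposited counts are whole numbers of reads of the ChIP and control library per region, and no normalization of them is stated. The deposited false discovery rate, a p-value type column, was used only as a filter: 3 direct regions above the cut-off, 0 of them on 2L, were left out.

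Computed here were ratios of ChIP to control reads with exact intervals for 2 Poisson counts, exact Clopper-Pearson intervals of shares, overlaps of at least 1 bp (partner of largest overlap), clusters of regions under 10 kb apart, and windows. No test was run, since each group has 1 library. The overlap and cluster code was checked on shifted or copied WT regions that stood far from any other WT region. The interval of a ratio was checked on simulated counts. Named regions were, on 2L in each input list, the 5 of highest ratio, the 5 with most ChIP reads, the 3 of lowest ratio, the 3 widest, the 5 unshared with most ChIP reads and the 3 largest clusters, the 5 shared of highest WT ratio, and the regions of the direct list and of the windows named; others are marked as chosen later or stand beside one of these. The locus windows are approximate. The stretch, limits, lists and windows were chosen with earlier results of these data known, and the lower-edge measure after seeing these values. Scripts ran in Python 3.11.15 with pandas 2.3.3, scipy 1.17.1, matplotlib 3.10.9 and numpy 2.4.6.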

Additional observations from a re-analysis of the deposited data

How the results depend on the processing

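No paired analysis was possible because there is 1 library in each group. Among 112 values recomputed under alternatives, 81 stayed, 31 moved and 0 reversed. A reversal could be recorded only for the median quotients at shared regions. All other values could only stay or move, so the 0 says nothing about them. Numbers of regions count as moved past a factor of 1.5, shares and medians when outside their 95% interval. Under rules common to both lists, dH1 RNAi regions on 2L were 3.15 (joined under 10 kb), 3.77 (at most 200 control reads) and up to 5.36 (proximal length 2 Mb) times as many as WT regions. The cuts at the list median and at 4/3 and 5/3 of the lowest ratio are set within each list, so the number ratio after them (4.96 to 6.16) is no support for the difference; the median cut keeps about the same share of each list by construction. Depth is unknown. Each alternative removes, joins or regroups regions by its own construction, and what else moved the values was not tested.

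With ChIP reads of at least the list median, 90 dH1 RNAi, 18 WT and 1 direct regions were left, the median ratio, as counted within each list, was 0.683 (dH1 RNAi) and 3.16 (WT), the dH1 RNAi width 1100 bp, 52.2% of dH1 RNAi regions had high input and 88.9% of WT regions were shared. At a ratio of at least 4/3 of the lowest of the list, the dH1 RNAi median ratio was 1.08, its clustered share 53.7% and its high-input share 1.49%, the WT high-input share was 0% and 0 direct regions were left. At 5/3, 117 dH1 RNAi, 19 WT and 0 direct regions were left, with median ratios of 1.13 (dH1 RNAi) and 3.13 (WT), a dH1 RNAi clustered share of 48.7% and high-input shares of 0% in both lists.

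At up to 200 control reads the dH1 RNAi median ratio was 1.09, its clustered share 53.0%, and 0 direct regions were left; the high-input share was not run there, being 0 by construction. Joined under 10 kb, the dH1 RNAi list had 107 regions, 3.15 times the WT number. The clustered share of dH1 RNAi regions was 24.02% at a gap of 1 kb and 81.6% at 50 kb, and that of WT regions 44.4% at 50 kb. With a proximal length of 2 Mb, or a limit of 300 reads, the WT high-input share was 0%. The medians at shared regions stayed under each alternative run.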
